A study of Rattus norvegicus with 18 samples.

Results

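WB-F344 rat liver epithelial cells held in PCB126 for 72 h were compared with the same cells held in PCB126 for 24 h, across all measured genes. The arrays were chosen by their titles alone and are 6 of the 18 in the series, with 3 at 72 h and 3 at 24 h. WB-F344 is a diploid rat liver line with stem-like properties, and the cultures were confluent at passages 14 to 16, on 60 mm dishes. The exposed dishes received 100 nM PCB126, and the vehicle dishes received 0.1% DMSO. Besides PCB126 at 72 h and at 24 h, the series holds PCB126 at 6 h, DMSO at 72 h, DMSO at 24 h and DMSO at 6 h, with 3 independent repeats each. All the groups come from 1 cell line in culture, and no array of cells before exposure was used here, so time in PCB126 and time in confluent culture pass together.

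PCB126 is a dioxin-like polychlorinated biphenyl that binds the aryl hydrocarbon receptor (AhR). The bound receptor enters the nucleus, pairs with ARNT and switches on a battery of xenobiotic-metabolising enzymes, of which the cytochrome P450 Cyp1a1 is the classical member. PCB126 is slowly metabolised, so receptor activation can be sustained, and in liver-derived cells such activation is known to touch growth control, cell adhesion and intermediary metabolism as well as the battery itself.

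Each array gave a log2 value for 16988 genes, taken as the median of all probe sets assigned to that gene and no other, and a difference of 1 on this scale is 2-fold. The hepatocyte-lineage markers Alb and Afp had mean values of 3.41 and 3.61 at 72 h, against 3.32 and 3.67 at 24 h, all below the median probe set level of 4.03. Of 20 hepatocyte markers, 7 were below that level at 72 h and 6 at 24 h, and the rest were above it. Cyp2e1, another of them, had 8.22 at 72 h and 9.45 at 24 h. The leukocyte gene Ptprc was also below the level (3.09 at 72 h and 2.95 at 24 h). Of 18 blood and endothelial markers, 4 were below it at each time. Vim, an intermediate filament of mesenchymal and cultured epithelial cells, had 13.14 at 72 h and 12.93 at 24 h, and the epithelial keratin Krt8 had 8.64 and 8.34. The summed log2 value of 20 hepatocyte markers ranged over 96.7 to 99.1 at 72 h and over 98.5 to 100.3 at 24 h, that of 14 duct and progenitor markers over 77.9 to 79.5 and 77.9 to 79.1, that of 18 mesenchymal markers over 112.5 to 115 and 112.4 to 114.6, and that of 18 blood and endothelial markers over 85.3 to 87.9 and 86.6 to 87.6. In such bulk RNA, fewer cells of a type and less RNA per cell cannot be told apart. Replicates 1 and 2 of PCB126 at 72 h had the widest spread of relative expression over genes (interquartile ranges 0.461 and 0.475, against 0.275 to 0.368 on the other 16 arrays). In a fit with array weights these 2 arrays had the lowest weights of the 18 (0.372 and 0.469). The remaining array of that group, replicate 3, had the highest (2.95), so the weighted 72 h mean rested mostly on 1 array. In that fit 366 genes were called between PCB126 at 72 h and at 24 h, against 109 in the unweighted fit described next.

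Between 24 and 72 h in PCB126, the stress regulator Nupr1, the actin bundler Lcp1 and the matricellular Thbs2 had the largest rises, and the stem cell factor Kitlg, the phosphatase subunit Ppp2r2b and the caveolar scaffold Cav1 the deepest falls among called genes. Of the gene lists described below, that of the extracellular matrix had the most members called, 5 of 43, where 0.642% of all genes were called. It is also the largest list, and some smaller lists had a larger share called, such as the BMP list (3 of 20) and the proteases (3 of 24). By limma, 109 of 16988 genes passed at an adjusted p under 0.05 (0.642%), of which 32 were higher at 72 h (0.188%) and 77 were lower (0.453%). At least 2-fold changes numbered 12 higher and 23 lower. All 109 had 3 values at 72 h that lay on 1 side of the 3 values at 24 h. Their choice by a test on these same values favours that, so it is no separate support. Over all genes 919 (5.41%) lay wholly above and 1344 (7.91%) wholly below. The median change over all genes was -0.02. Lower genes were 70.6% of the calls, but with each array centred on the median of its genes the calls were 118, split into 59 higher and 59 lower. The count rests on a spread shared by all 6 groups: a fit to the 6 arrays alone called 0 genes, with 1141 at an unadjusted p under 0.05 against 1843 in the shared fit. It was 46 without replicate 2 and 47 without replicate 3 at 24 h, and 60 without replicate 2 and 64 without replicate 3 at 72 h.

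Nupr1, a small stress-induced chromatin protein that is a known target of the transcription factor ATF4, had the largest rise. Its values were 11.22, 10.66 and 10.59 at 72 h, against 8.44, 9.58 and 8.56 at 24 h. Every array at 72 h was above every array at 24 h, and replicate 2 at 24 h stood above the other two there. The rise was 3.9-fold (log2 change 1.97, SE 0.249, adjusted p = 0.00159), and all 4 of its probe sets were higher, by 1.56 to 2.02. The promoter of Nupr1 is printed because it was the 1 promoter, of the 22 available for genes that rose, that holds the ATF4-C/EBP element searched for (TGATGNAA, on either strand, at any position in the window). The promoters of Chac1 and Trib3, known stress targets of ATF4 that were not called here, are set beside it and were chosen after their values were seen. Each is a RefSeq window of 300 bases around the gene's start in GRCr8, written along the gene's strand, with the element in capitals.
Nupr1 (chr1:190645852-190646151, minus strand): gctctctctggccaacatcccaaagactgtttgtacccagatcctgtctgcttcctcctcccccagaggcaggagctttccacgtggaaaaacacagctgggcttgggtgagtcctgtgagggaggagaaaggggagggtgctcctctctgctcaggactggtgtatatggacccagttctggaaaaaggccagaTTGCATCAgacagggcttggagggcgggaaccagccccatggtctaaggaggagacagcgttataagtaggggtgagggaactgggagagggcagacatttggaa
Chac1 (chr3:126795881-126796180, plus strand): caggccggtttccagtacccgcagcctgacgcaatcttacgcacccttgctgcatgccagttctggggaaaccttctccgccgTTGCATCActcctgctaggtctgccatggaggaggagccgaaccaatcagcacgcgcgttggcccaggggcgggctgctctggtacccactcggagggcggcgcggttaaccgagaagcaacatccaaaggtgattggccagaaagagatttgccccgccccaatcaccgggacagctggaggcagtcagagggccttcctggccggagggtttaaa
Trib3 (chr3:161275484-161275783, minus strand): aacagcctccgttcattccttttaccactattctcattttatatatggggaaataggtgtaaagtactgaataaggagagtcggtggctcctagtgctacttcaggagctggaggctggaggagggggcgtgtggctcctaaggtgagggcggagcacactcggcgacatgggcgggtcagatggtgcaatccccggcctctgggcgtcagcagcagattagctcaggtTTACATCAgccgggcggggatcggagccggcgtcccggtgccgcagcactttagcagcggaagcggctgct
The element lies at position -55 in Nupr1, -167 in Chac1 and -21 in Trib3, counted from the gene's start, in each case on the strand opposite to the gene. It was in 3.82% of all 27457 promoters, in 3 of the 21 available for the stress list described next, and in 0 of the 56 available for genes that fell. A match is only a run of letters in this window.

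The stress list holds genes of ER stress and of the integrated stress response, and through the latter ATF4 raises amino acid synthesis and transport. It had 2 of 22 measured members called higher and 0 lower, against 0.188% of all genes higher. The 2 were Asns and Shmt2. Asns, which makes asparagine, had 8.77, 8.08 and 8.13 at 72 h, against 6.58, 7.82 and 6.99 at 24 h. The groups did not overlap, but replicate 2 at 24 h was within 0.5 of the lowest value at 72 h. The rise was 2.3-fold (log2 change 1.20, SE 0.252, adjusted p = 0.0401). The mitochondrial serine hydroxymethyltransferase Shmt2 rose 1.63-fold (0.70, SE 0.148, adjusted p = 0.0401). The call of Asns was lost without any 1 of 5 of the 6 arrays, all but replicate 2 at 24 h (adjusted p = 0.0708 to 0.155), and that of Shmt2 without any 1 of 5, all but replicate 2 at 72 h (0.0616 to 0.165). Of the whole list, 9 members lay wholly above at 72 h and 2 wholly below, against 5.41% and 7.91% of all genes, and the median change was 0.30. In DMSO over the same interval, 9 members lay wholly above and 0 wholly below, against 5.24% and 13.5% of all genes in DMSO. The median of the list there was 0.26. The change of Atf4 itself was 0.63 (adjusted p = 0.289), of the serine synthesis enzyme Psat1 0.68 (0.125) and of the amino acid transporter Slc7a5 0.61, while the ER chaperones Hspa5 and Tra1 (Grp94) had -0.16 and -0.48, and none of these 5 passed.

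Outside the lists, Psph, the phosphatase of the last step of serine synthesis, was among the 15 largest rises, and it had 8.63, 8.36 and 8.23 at 72 h, against 7.36, 7.40 and 7.48 at 24 h. The 2 groups were well apart, and the rise was 1.99-fold (SE 0.152 on the log2 scale, adjusted p = 0.00491). Bcat1, the cytosolic transaminase of branched-chain amino acids, had 9.62, 9.60 and 9.78 at 72 h, against 8.24, 8.93 and 8.29 at 24 h, with replicate 2 again highest at 24 h. It rose 2.26-fold (adjusted p = 0.00461). Mthfd2, a mitochondrial folate enzyme, and Slc6a9, a glycine transporter, rose by 0.90 and 0.98 (adjusted p = 0.0392 and 0.0186). They were picked after their values were seen and were not recomputed without single arrays. The calls of Psph and Bcat1 held without any 1 of the 6 arrays.

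**Figure D1:**
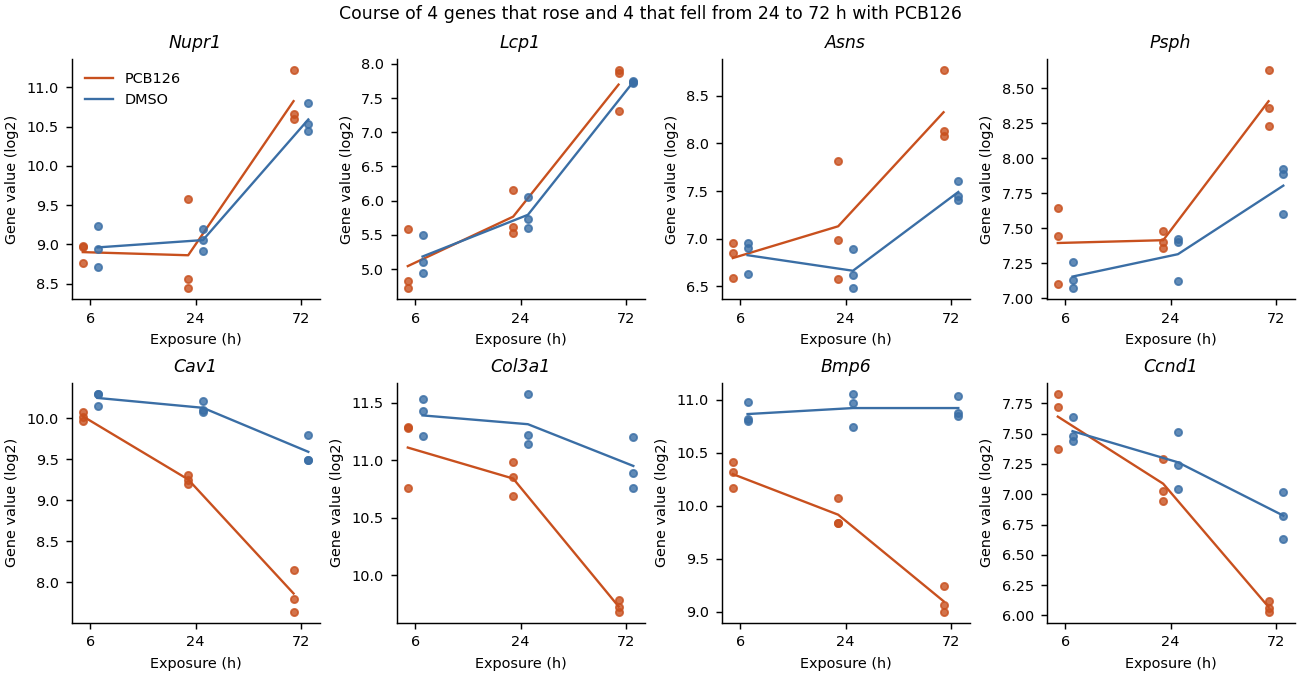
Gene values (log2) of 8 genes at 6, 24 and 72 h in PCB126 and DMSO, with 1 point per array and a line through the 3-array means. Nupr1, Lcp1, Asns and Psph reach their highest PCB126 values at 72 h, and Cav1, Col3a1, Bmp6 and Ccnd1 their lowest.

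Lcp1, the actin-bundling protein L-plastin, and Thbs2, a secreted matricellular thrombospondin, also rose. Lcp1 had 7.91, 7.31 and 7.87 at 72 h, against 5.53, 6.15 and 5.62 at 24 h. The lowest value at 72 h was more than 1 above the highest at 24 h, and the rise was 3.81-fold (SE 0.237 on the log2 scale, adjusted p = 0.00131). Thbs2 had 7.57, 7.58 and 7.39 at 72 h, against 6.00, 6.44 and 6.14 at 24 h, a 2.49-fold rise (adjusted p = 0.00256). For both, all probe sets were higher at 72 h (23 of 23 for Lcp1 and 22 of 22 for Thbs2).

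Tagln, the smooth muscle actin-binding protein transgelin, rose 2.26-fold (adjusted p = 0.00816), with 10.64, 10.07 and 9.98 at 72 h, against 8.90, 8.99 and 9.27 at 24 h. It was the 1 called member of 22 measured genes of the actin cytoskeleton and smooth muscle, where 0.642% of all genes were called, and the other 21 did not pass. Ckmt1, the mitochondrial creatine kinase, rose 2-fold (adjusted p = 0.00177). It is from a list of polyamine, urea and creatine genes in which 1 of 22 passed, against 0.642% of all genes. Pgc, the aspartic protease precursor pepsinogen C, rose 2.18-fold (adjusted p = 0.00131), and Pnoc, the precursor of the peptide nociceptin, 2.27-fold (0.00461). These 4 calls held without any 1 of the 6 arrays, although Tagln came to an adjusted p of 0.0489 without replicate 2 at 24 h. Smaller margins stood behind Slc5a12, a lactate transporter (log2 change 1.28), Gdf2, which encodes BMP9 (1.16), the sarcomere protein Myoz2 (1.08), the clock and hypoxia repressor Bhlhb2 (current symbol Bhlhe40, 1.07) and the heparan sulfate sulfotransferase Ndst3 (0.98). The mean of Slc5a12 at 24 h was 3.68, below the median probe set level of 4.03. Slc5a12 lost its call without any array at 24 h or replicate 3 at 72 h (adjusted p as high as 0.0915), and Gdf2 without any of the 6 arrays (0.163). Myoz2 lost it without replicate 1 or 2 at 24 h or replicate 1 or 3 at 72 h (0.214), Bhlhb2 without any array but replicate 3 at 72 h (0.114) and Ndst3 without any but replicate 2 at 72 h (0.129).

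The deepest fall was that of Kitlg, the stem cell factor that binds the receptor tyrosine kinase Kit. It had 9.16, 9.06 and 9.16 at 72 h, against 10.68, 10.61 and 10.38 at 24 h. The 3 values at 72 h were close together and all more than 1 below those at 24 h. The fall was 2.69-fold (log2 change -1.43, SE 0.113, adjusted p = 1.87e-05), and 13 of 14 probe sets were lower. The receptor Kit had a change of -0.40 that did not pass (adjusted p = 0.391).

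Cav1, the scaffold of caveolae, had 8.15, 7.64 and 7.80 at 72 h, against 9.20, 9.31 and 9.25 at 24 h, with no overlap. It was 2.62-fold lower (log2 change -1.39, SE 0.130, adjusted p = 9.93e-05). Ppp2r2b, a regulatory subunit of protein phosphatase 2A, was 2.67-fold lower (adjusted p = 0.00108), with 13 of 18 probe sets lower and 5 higher. The axon guidance semaphorin Sema5a was 2.11-fold lower (0.00385), and RGD1562236 (current symbol Lratd2) was 2.21-fold lower (0.00385). Cyclin D1 (Ccnd1), which drives G1 progression, had 6.06, 6.03 and 6.12 at 72 h, against 6.94, 7.03 and 7.29 at 24 h, and was 2.03-fold lower (adjusted p = 0.00461). It was the 1 call among 21 measured genes of G1 control, where 0.642% of all genes were called. These calls held without any 1 of the 6 arrays. Samd9l, an interferon-inducible growth suppressor (current symbol Samd9l1), the carboxypeptidase Cpm and the nucleotide-sugar receptor P2ry14 had falls of -1.35, -1.25 and -1.25. The means of P2ry14 (2.3 at 72 h and 3.55 at 24 h) and that of Samd9l at 72 h (3.89) were below the median probe set level of 4.03. Samd9l lost its call without replicate 2 or 3 at either time (adjusted p as high as 0.121), Cpm without any 1 of the 3 arrays at 24 h (as high as 0.0957) and P2ry14 without any of the 6 (as high as 0.148).

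Genes of the extracellular matrix had 1 of 43 measured members called higher, the Thbs2 described above, and 4 called lower, against 0.453% of all genes lower. Col3a1, which encodes a fibrillar collagen, had 9.72, 9.78 and 9.68 at 72 h, against 10.85, 10.98 and 10.69 at 24 h. The groups were well apart, and the fall was 2.16-fold (log2 change -1.11, SE 0.168, adjusted p = 0.00461), with 55 of 55 probe sets lower. The collagen-binding proteoglycan Fmod was 2.04-fold lower (adjusted p = 0.00461), the basement membrane protein Nid1 1.79-fold lower (0.0193) and the elastic fibre protein Fbln5, picked after its value was seen and not recomputed without single arrays, changed by -0.69 (0.0226). Mfap4, a microfibril-associated glycoprotein outside the list, had 5.54, 5.59 and 5.58 at 72 h, against 6.92, 6.55 and 6.73 at 24 h, and was 2.24-fold lower (0.00159). In the whole list, 17 members lay wholly below at 72 h and 3 wholly above, against 7.91% and 5.41% of all genes, and the median change was -0.15. In DMSO, 3 members were called lower and 1 higher, against 0.3% and 0.0883% of all genes in DMSO. There, 12 members lay wholly below and 2 wholly above, against 13.5% and 5.24% of all genes, and the median was -0.13. Col1a1 had a change of -0.70 (SE 0.184) that did not pass (adjusted p = 0.128). Nid1 lost its call without replicate 2 or 3 at either time (adjusted p as high as 0.0909). The 4 lower calls of the list were 2 without replicate 2 or 3 at 24 h or replicate 3 at 72 h, and 3 without replicate 2 at 72 h.

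Of 24 measured proteases and inhibitors, 3 fell and 0 rose, against 0.453% and 0.188% of all genes. In DMSO 2 fell and 0 rose, against 0.3% and 0.0883% of all genes there. Adam12, a membrane metalloprotease of mesenchymal and regenerating tissue, had 5.36, 4.87 and 5.56 at 72 h, against 6.30, 6.52 and 6.26 at 24 h. It was 2.14-fold lower (log2 change -1.10, SE 0.176, adjusted p = 0.00625). The matrix metalloprotease Mmp19 was 2.14-fold lower (0.0126), and the proteoglycan-cleaving Adamts9 had 5.59, 5.36 and 5.57 at 72 h, against 6.28, 6.54 and 6.41 at 24 h, a 1.87-fold fall (0.00257). The call of Mmp19 was lost without replicate 3 at 24 h (adjusted p = 0.068) or replicate 2 at 72 h (0.0586).

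In the list of BMP ligands, antagonists, receptors, SMADs, ID genes and Hey1, 3 of 20 fell and 0 rose, against 0.453% and 0.188% of all genes. In DMSO 0 of 20 passed, where 0.389% of all genes did. The ligand Gdf2 (BMP9), which rose, is not in the list. The ligand Bmp6 had 9.06, 9.0 and 9.24 at 72 h, against 9.84, 10.07 and 9.84 at 24 h. The groups did not overlap, and Bmp6 was 1.76-fold lower (log2 change -0.82, SE 0.123, adjusted p = 0.00461). The receptor-regulated Smad9 and the inhibitory Smad6 were each 1.58-fold lower (adjusted p = 0.0151 and 0.0279). The ID genes, the classical readout of BMP signalling, did not pass: Id1, Id2, Id3 and Id4 had changes of 0.16, -0.01, -0.03 and -0.15. Smad9 lost its call without replicate 1 or 2 at 24 h or replicate 2 at 72 h (adjusted p as high as 0.0729), and Smad6 without any 1 of 5 arrays, all but replicate 1 at 24 h (as high as 0.144). The count of 3 was 1 without replicate 2 at 24 h or replicate 2 at 72 h.

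In the TGF-beta pathway 1 of 17 members passed, the latent TGF-beta binding protein Ltbp1, and it was lower, as were 0.453% of all genes. It had 6.79, 6.90 and 7.34 at 72 h, against 8.01, 8.11 and 8.07 at 24 h, and was 2.08-fold lower (adjusted p = 0.00563). In the list of EGF, FGF, HGF and PDGF signalling, Kitlg and the FGF receptor Fgfr2 were the 2 calls among 28, both lower, against 0.453% of all genes. The fall of Fgfr2 was 1.62-fold (adjusted p = 0.0327), and its call was lost without any 1 of the 6 arrays (as high as 0.115). In the Wnt list the feedback inhibitor Nkd1 was the 1 call among 23, at -0.55 (0.0487), where 0.453% of all genes were called lower. Its call too was lost without any 1 of the 6 arrays (as high as 0.207).

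Among the marker lists, hepatocyte genes had 2 of 20 members called lower and 0 called higher, against 0.453% and 0.188% of all genes. Over the whole list 13 of 20 changes were above 0, and the median was 0.06. Cyp2e1, a liver cytochrome P450 of ethanol metabolism, had 8.39, 8.21 and 8.06 at 72 h, against 9.13, 9.41 and 9.79 at 24 h, and was 2.34-fold lower (log2 change -1.22, SE 0.191, adjusted p = 0.00516), with 11 of 11 probe sets lower. Hpd, an enzyme of tyrosine breakdown, had 4.81, 5.07 and 5.09 at 72 h, against 5.98, 5.97 and 6.19 at 24 h, and was 2.08-fold lower (0.00202). Both calls held without any 1 of the 6 arrays. The duct list had the keratin Krt18 at 0.80 and the water channel Aqp1 at -0.86, 1 in each direction of 14. The mesenchymal list had the adhesion molecule Ncam1 at -0.78, 1 of 18. Over all genes 0.188% were called higher and 0.453% lower. The mean of Krt18 at 24 h was 3.99, below the median probe set level of 4.03. Krt18 can share probes with other keratins. The call of Krt18 was lost without any of the 6 arrays (adjusted p as high as 0.175), that of Aqp1 without any but replicate 3 at 72 h (0.18) and that of Ncam1 without replicate 2 or 3 at either time (0.127). No blood or endothelial marker of 18 passed by limma, where 0.642% of all genes did, and the 1 with the smallest p was Cd79b, a B cell receptor chain (-0.60, adjusted p = 0.38).

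In the list of inflammation, the lipopolysaccharide-binding protein Lbp and the complement factor Cfb fell, 2 of 26, and 0 rose, against 0.453% and 0.188% of all genes. In DMSO 2 of 26 fell as well, against 0.3% of all genes there. Lbp had 7.07, 7.23 and 7.38 at 72 h, against 7.90, 8.26 and 8.28 at 24 h, and was 1.89-fold lower (adjusted p = 0.00385). Cfb was 2.09-fold lower (0.0301), and it lost its call without replicate 2 or 3 at 24 h or replicate 1 or 2 at 72 h (as high as 0.168).

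The list of the AhR battery also holds the receptor Ahr and the regulator Nfe2l2. By limma it had 0 of 14 measured members called between 24 and 72 h, where 0.642% of all genes were called. Its median change was 0.05. At 72 h some members had means near those in DMSO, such as Cyp1a2 (5.12 in PCB126 and 5.01 in DMSO), Gsta2 (3.54 and 3.61) and Xdh (9.03 and 9.29). Others were far higher in PCB126, such as Aldh3a1 (11.97 and 6.06) and Nqo1 (10.17 and 7.39). Aldh3a1 alone among the 14 passed under other settings, with bright genes alone, with centring, with an intensity trend and with array weights (adjusted p = 0.0289 to 0.0483). The 3 values at 72 h lay wholly above those at 24 h for 3 members, Cyp1a1, Aldh3a1 and Nqo1, and wholly below for 1, Nfe2l2, against 5.41% and 7.91% of all genes. Cyp1a1 had 10.82, 10.25 and 9.92 at 72 h, against 9.86, 9.39 and 9.83 at 24 h, so that the groups were just apart. Its change was 0.64 (SE 0.245, adjusted p = 0.348), and its mean over the times was 6.97, 9.69 and 10.33 at 6, 24 and 72 h, against 4.07, 4.15 and 4.11 in DMSO. The aldehyde dehydrogenase Aldh3a1 had 11.93, 12.08 and 11.91 at 72 h, against 11.21, 11.40 and 11.48 at 24 h, a change of 0.61 that also did not pass (SE 0.142, adjusted p = 0.0757). The quinone reductase Nqo1 had 10.27, 10.22 and 10.03 at 72 h, against 9.61, 9.75 and 10.02 at 24 h (0.38, adjusted p = 0.346).

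The other members had smaller changes. Cyp1b1, a P450 of steroid and hydrocarbon oxidation, had 11.75, 11.83 and 11.82 at 72 h, against 11.65, 11.77 and 11.46 at 24 h (0.17). The poly-ADP-ribose polymerase Tiparp (0.09), the AhR repressor Ahrr (-0.24) and the receptor Ahr itself (-0.26) did not pass, nor did the antioxidant regulator Nfe2l2 (-0.25). Cyp1a2, Cyp2s1, Ugt1a6, Ugt1a7c, Gsta2 and Xdh had changes between -0.21 and 0.38, with adjusted p-values of 0.459 to 0.997. The Ugt1a genes share exons, so their probe sets may not tell them apart.

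**Figure D2:**
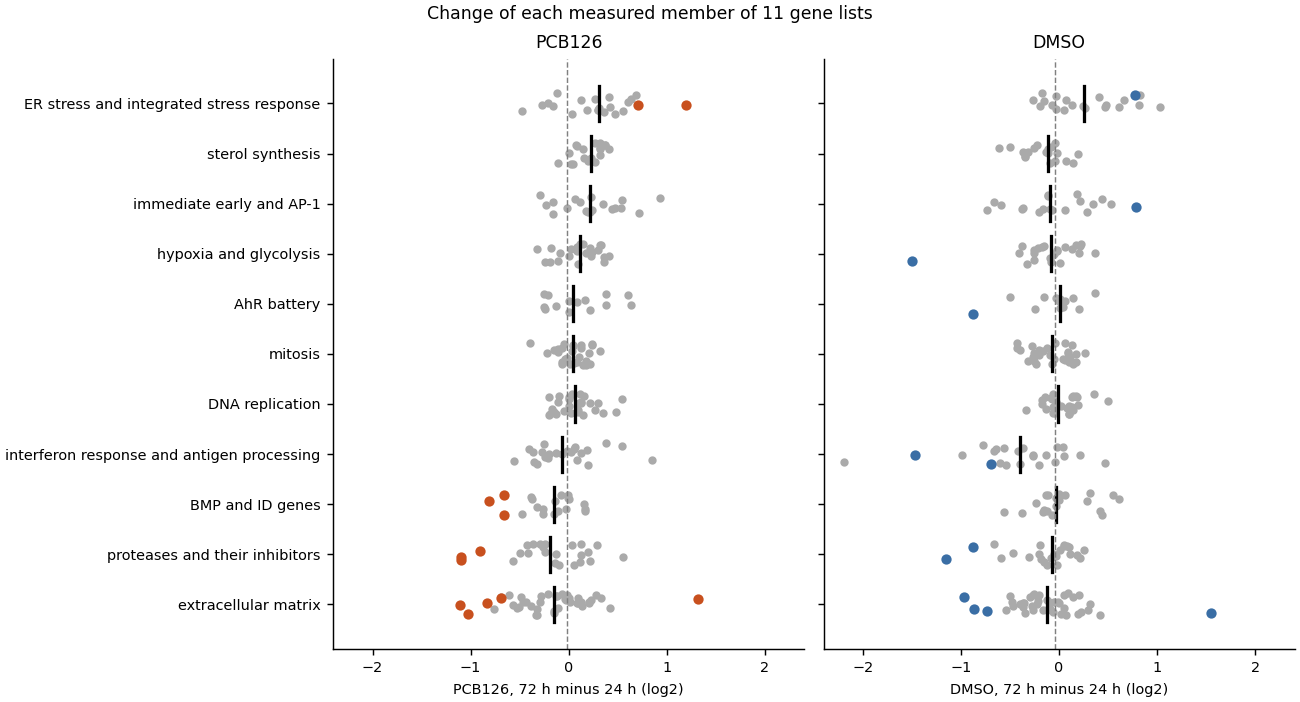
Change from 24 to 72 h (72 h minus 24 h, log2) of each measured member of 11 gene lists, in PCB126 on the left and DMSO on the right. Each point is 1 gene, coloured where limma called it, the black bar is the list's median and the dashed line the median of all genes. The AhR battery has 0 coloured points with PCB126, the matrix list has 4 on the left of zero and 1 on the right, and the sterol points lie mostly right of zero with PCB126.

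Some lists had no called member and yet a common lean. Of 19 measured genes of sterol synthesis, 18 had a change above 0 and 10 lay wholly above at 72 h with 0 wholly below, against 5.41% and 7.91% of all genes, and the median change was 0.22. Squalene synthase (Fdft1) had 10.71, 10.67 and 10.64 at 72 h, against 10.16, 10.29 and 10.45 at 24 h, and its change was 0.37 (SE 0.118, adjusted p = 0.225). Methylsterol oxidase (Sc4mol) had 0.41 and squalene epoxidase (Sqle) 0.32, while farnesyl diphosphate synthase (Fdps) had -0.11. Of 19 immediate early genes, 7 lay wholly above and 0 wholly below, with a median of 0.21. The stress-inducible Atf3 had 8.27, 7.06 and 7.34 at 72 h, and its change was 0.93 (adjusted p = 0.148). By limma at an adjusted p under 0.05, 0 of 19 passed in either list, where 0.642% of all genes did. With the mean over probe sets 2 immediate early genes passed, 1 of them the phosphatase Dusp1 (0.52, adjusted p = 0.0312). In DMSO, 3 immediate early genes lay wholly above and 3 wholly below, against 5.24% and 13.5% of all genes there, with a median of -0.09. Dusp1 rose in DMSO by 0.785 and was called in the main fit (adjusted p = 0.00667). Its change in PCB126 in that fit was 0.471 (adjusted p = 0.0996).

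Genes of DNA replication and of mitosis had 0 called of 28 and of 29, where 0.642% of all genes were called, and medians of 0.06 and 0.04. The member of each with the smallest p was Rfc4, a clamp loader subunit (0.55, adjusted p = 0.456), and Cenpf, a kinetochore protein (-0.40, 0.548). With replicate 1 of PCB126 left out at both times, the medians of these 2 lists were -0.10 and -0.16. Cell junction genes had 0 of 25 called, where 0.642% of all genes were. Cgn, a tight junction protein, came nearest at -0.61 (adjusted p = 0.0521), and it passed under 9 other settings (adjusted p = 0.00913 to 0.0444).

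The 6 h arrays place these changes in a longer course. Of the 77 genes that fell, 61 had their highest mean in PCB126 at 6 h and 16 had a 6 h mean between those at 24 and 72 h. Of the 32 that rose, 20 had their lowest mean at 6 h and 12 had it between the others. Kitlg stood at 11.16, 10.56 and 9.13 at 6, 24 and 72 h, Cav1 at 10.02, 9.25 and 7.86, and Bmp6 at 10.30, 9.92 and 9.10, so that each was lower at each later time. Nupr1, at 8.90, 8.86 and 10.82, and Psph were nearly level until 24 h.

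Because time in culture passes in both treatments, the same interval was read in DMSO, whose mean values come from arrays other than those of the PCB126 means. The 2 tests share the estimate of the spread, which was made over all 18 arrays. Between 24 and 72 h in DMSO 66 genes passed (0.389%), 15 higher (0.0883%) and 51 lower (0.3%), and 22 genes were called in both treatments, all in the same direction. These were 20.2% of the PCB126 calls and 33.3% of the DMSO calls. Of the 109 PCB126 calls, 97 had the same sign in DMSO and 65 also had an unadjusted p under 0.05 there. The genes that rose with PCB126 had median changes of 0.96 in PCB126 and 0.46 in DMSO, and those that fell had -0.84 in PCB126 and -0.38 in DMSO, where the choice of genes by their PCB126 value favours the larger size there. Across all genes the 2 changes had a Pearson r of 0.26 and a Spearman rho of 0.28, and genes are not independent replicates. Without 1 array the DMSO count was 13 to 61, namely 17, 13 and 36 without replicate 1, 2 or 3 at 24 h, and 22 and 23 without replicate 1 or 3 at 72 h.

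**Figure D3:**
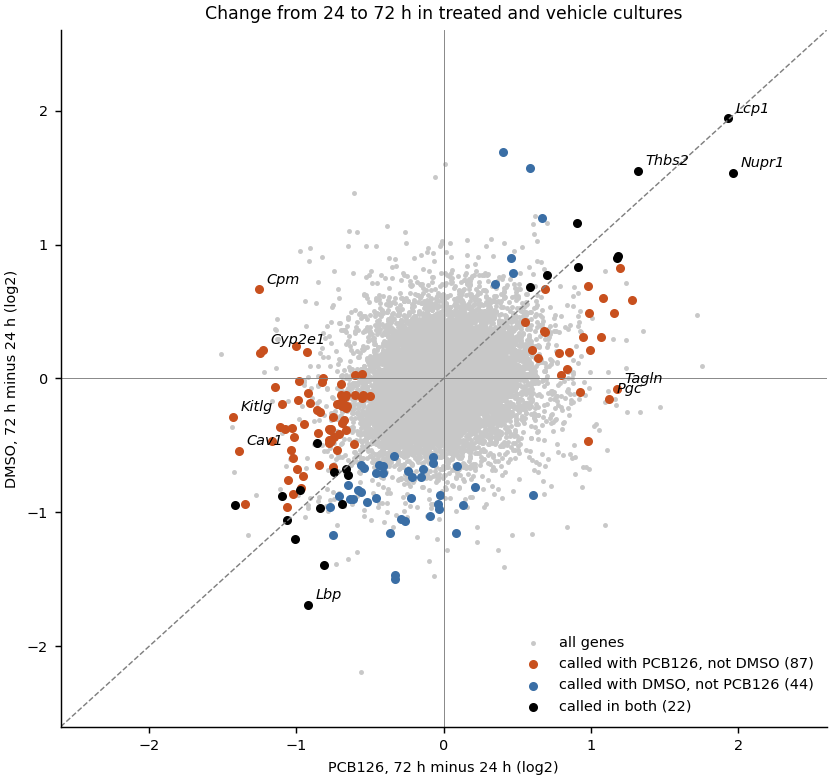
Change from 24 to 72 h (72 h minus 24 h, log2) in PCB126 (horizontal) against DMSO (vertical) for 16988 genes, with genes called by limma in colour and the dashed line marking equal change. Lcp1, Thbs2 and Nupr1 lie near the line at the upper right, and Kitlg, Cyp2e1 and Cpm lie left of it.

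Lcp1 shows the shared course, with 7.75, 7.72 and 7.74 in DMSO at 72 h, against 5.73, 6.05 and 5.60 in DMSO at 24 h, a 3.84-fold rise (adjusted p = 0.00121) beside the 3.81-fold rise with PCB126. Thbs2 and Nupr1 rose in DMSO too, 2.93-fold (6.99e-04) and 2.9-fold (0.011), as did Bcat1 (1.87-fold, 0.0325) and Shmt2 (1.71-fold, 0.0312). Mthfd2 was called higher there as well, with a log2 change of 1.16 (0.011), and the change of Slc6a9, 0.69, did not pass (0.118). Of the falls, Hpd was 2.08-fold lower in both treatments, Nid1 was 1.96-fold lower in DMSO (0.011), Ppp2r2b 1.93-fold lower (0.0163) and Adam12 1.84-fold lower (0.0376). Lbp fell further in DMSO (3.23-fold, 1.48e-05) than in PCB126, and the difference of the 2 changes did not pass. The sterol list had a median of -0.11 in DMSO, where 0 of 19 members lay wholly above and 5 wholly below, against 5.24% and 13.5% of all genes in DMSO. The interferon list had a median of -0.40 in DMSO and -0.07 in PCB126. Of its 23 members, 2 were called lower in DMSO, Mx2 and Stat2, and 0 in PCB126, against 0.3% and 0.453% of all genes. No member of the sterol or interferon lists passed the test of the difference between treatments.

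In that test, of the PCB126 change minus the DMSO change, 4 genes passed (0.0235%), 3 with a positive difference (0.0177%) and 1 with a negative one (0.00589%), and 937 had an unadjusted p under 0.05. Of these 4, Aldh3a1 had the largest difference, 1.48 (SE 0.201, adjusted p = 0.0211). Its values in DMSO were 6.00, 6.00 and 6.18 at 72 h, against 7.08, 6.94 and 6.78 at 24 h, a fall (-0.87, adjusted p = 0.011) beside its uncalled change of 0.61 in PCB126. Pgc differed by 1.28 (SE 0.195, adjusted p = 0.0396). It had 7.49, 7.21 and 7.23 in PCB126 at 72 h, against 6.08, 6.13 and 6.35 in PCB126 at 24 h, and 5.49, 5.84 and 5.47 in DMSO at 72 h, against 5.84, 5.72 and 5.69 in DMSO at 24 h, where the groups overlapped.

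Kitlg differed by -1.14 (SE 0.160, adjusted p = 0.0211), and its DMSO values were 11.07, 11.28 and 11.16 at 72 h, against 11.44, 11.44 and 11.47 at 24 h. The kinase Rps6ka2, an effector of the ERK pathway, differed by 1.08 (SE 0.170, adjusted p = 0.0404). Its values in PCB126 were 9.64, 9.71 and 9.81 at 72 h, against 9.42, 9.60 and 9.75 at 24 h, and in DMSO 8.03, 7.96 and 7.91 at 72 h, against 8.91, 9.02 and 8.81 at 24 h, where the called change is the one in DMSO. Only Kitlg and Pgc among these 4 were also among the 109 calls. Each of the 4 lost its call without most single arrays of the 12 compared: Aldh3a1 without 9 (adjusted p as high as 0.104), Kitlg without 11 (0.104), Pgc without 11 (0.161) and Rps6ka2 without 11 (0.161). The remaining calls with PCB126, such as Cyp2e1 (-1.22 in PCB126 and 0.22 in DMSO), Cpm (-1.25 and 0.67) and Tagln (1.18 and -0.08), did not pass this test, which does not show that the treatments changed alike.

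**Figure D4:**
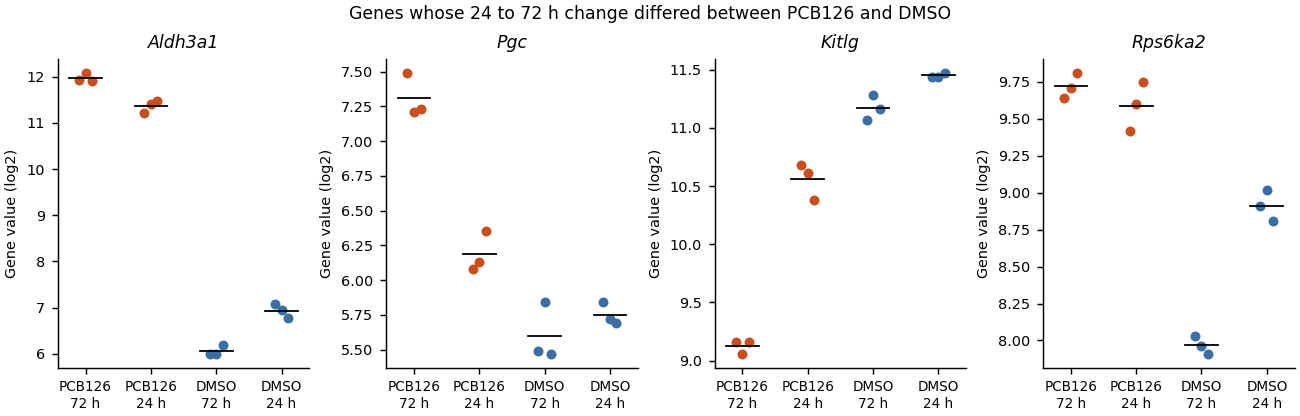
Gene values (log2) of the 4 genes that passed the test of the difference, by group, with 1 point per array and a black line at each mean. Kitlg falls and Pgc rises from 24 to 72 h in PCB126, while the larger steps of Aldh3a1 and Rps6ka2 are the lower DMSO values at 72 h.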

How the data were processed

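Per the labels' protocols, each culture's total RNA was fragmented, biotin-labelled and run on 1 Affymetrix exon array. Per the submitters' processing notes, the deposited log2 values come from RMA, run in Affymetrix Power Tools 1.12.0. RMA's background correction and scaling between arrays compress the changes of dim probe sets.

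A gene's value was the median of the probe sets paired with that symbol alone (223110 of 1044112 probe sets, 16988 genes, median 10 per gene, 657 genes with 1). Symbols are the platform annotation's. RefSeq GRCr8 was used for current names and promoters. limma 3.58.1 in R 4.3.3 fitted 1 mean per group to all 18 arrays (12 residual and 3.89 prior degrees of freedom), with two-sided moderated tests and Benjamini-Hochberg adjustment over all genes. It was tested on simulated data. Repeats are called independent by the labels, and 3 arrays per group limit the precision.

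Genes, the 36 lists (748 of 812 members measured) and tests were chosen with earlier results of these data known. Named were the 15 largest called rises and falls, the AhR battery, up to 3 called members per list and direction (or the smallest p), and the largest differences from DMSO. The main fit did not pair the samples by replicate number. Deviations from the group means of same-numbered arrays at 72 and 24 h had correlations of -0.1, 0.02 and -0.025 in PCB126. In DMSO they had 0.007, 0.162 and 0.126, and differently numbered arrays ranged from -0.146 to 0.154 over both treatments. With 3 arrays per group these values cannot settle whether the repeats were paired. Other settings were a replicate block, other summaries, filters and scalings, an intensity trend, array weights, fewer groups and leaving out arrays.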

Additional observations from a re-analysis of the deposited data

Results flagged for a closer look

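Where the change from 24 to 72 h in PCB126 was tested against the change over the same interval in DMSO, 4 genes differed. The differences, PCB126 change minus DMSO change on the log2 scale, were 1.48 for Aldh3a1, 1.28 for Pgc, -1.14 for Kitlg and 1.08 for Rps6ka2. Leaving out single arrays ended each of these calls more often than not, and no call among the 4 held with the first replicate of PCB126 left out at both times.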

How the results depend on the processing

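With PCB126, the 109 genes called between 24 and 72 h became 182 with the mean over probe sets, 366 with array weights and 0 in a fit to the compared groups alone (1141 at an unadjusted p under 0.05), and 46 to 115 without 1 array. The replicate block gave 104. With the first replicate left out at both times 115 were called, 59 of them shared with the 109. The 66 DMSO calls became 226 with the mean over probe sets, 128 with bright genes alone, 135 with an intensity trend, 151 with array weights and 10 in the compared groups alone, and 13 to 61 without 1 array. The 4 differences between treatments became 2 with the replicate block (Pgc and Rps6ka2 lost) or with bright probe sets alone, 8 with the mean over probe sets, 7 with centring or with an intensity trend, and 14 with array weights. They were 0 in the compared groups alone (838 at an unadjusted p under 0.05), 0 with the first replicate of PCB126 left out at both times (1145), and 0 to 4 without 1 array. The cause of these shifts was not tested, except that fits with fewer arrays have fewer degrees of freedom. Of the 45 named genes called with PCB126, 42 remained called with the block (Asns, Shmt2 and Ndst3 did not), 38 with centring, 41 with the mean over probe sets, 27 with the first replicate left out at both times and 27 to 32 without 1 array, and 0 reversed under any of these. Of the other 34, Cgn, Aldh3a1, Dusp1, Eif4ebp1 and Edn1 gained a call under at least 1 setting. Reversals were in uncalled genes: Cyp1a2 (-0.017 with bright probe sets), Cyp2s1 (-0.017 with array weights, -0.069 without the first replicates, -0.164 to 0.142 without 1 array), Gsta2 (-0.079 with the mean over probe sets, -0.015 with quantile normalisation, -0.305 with array weights, -0.075 without the first replicates, -0.415 to 0.279 without 1 array), Tiparp (-0.012 with the mean over probe sets, -0.041 with array weights, -0.139 without the first replicates, -0.083 to 0.177 without 1 array), Ifit2 (-0.067 with bright probe sets) and Cd79b (0.041 with the mean over probe sets).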
